A study of Mus musculus with 30 samples.

Results

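The genes described here are 34 oligodendrocyte lineage and myelin genes, of 19737 genes in the deposited table of 30 whole-brain RNA-Seq libraries. They were listed by name, as genes of precursors, of committed and premyelinating cells and of myelin-forming oligodendrocytes. All 34 were in the table, and all passed the filter on low values (a mean normalized count of at least 10) in each of the 9 comparisons. The mice were C57BL/6N males, either WT or Arid1b+/- (HT), with 1 germline Arid1b allele changed at exon 5 so as to truncate the protein (the sources used here give the change as an inserted TT and also as a deletion around that exon with the insertion), so that the change is carried by every cell and not by oligodendrocytes alone. Arid1b encodes a subunit of the BAF chromatin-remodelling complex. At postnatal day 10 (P10) the mice were untreated (5 HT and 5 WT). At P120 there were 5 mice each of HT-Flx, WT-Flx, HT-Veh and WT-Veh: the dams drank 0.2% saccharin water with 0.1 mg/ml fluoxetine (Flx), a selective serotonin reuptake inhibitor, or without it (Veh), from P3 to P21, and the pups took the drug in with the milk. Every P120 mouse, the vehicle controls included, therefore had a dam on saccharin water, and no P10 mouse did. Whether the libraries of both ages were made together is not given in the sources used here, and none of the P10 mice had vehicle, so age and vehicle cannot be told apart in a comparison of the ages.

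Oligodendrocytes arise from precursors that carry the PDGF receptor alpha and the NG2 proteoglycan, leave the cell cycle under the transcription factors of the Olig, Sox and Nkx families, pass through a short premyelinating stage, and then switch on the genes of the myelin sheath under Myrf. In the mouse forebrain most of this wave of myelination takes place in the first weeks after birth, and myelin continues to be added and renewed in the adult. The myelin sheath is rich in lipid, including cholesterol and galactolipids, and is held together by a small number of very abundant proteins.

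Promoter windows of 24 of the 34 genes were in the RefSeq promoter table used here (GRCm38.p6). The letters CTGGCAC, the core of the site at which Myrf binds DNA, were searched on both strands of the 300 bases around each start (250 before and 50 after). They were found in Mag, Cnp, Opalin and Hapln2, that is in 4 of 24 genes, and in 5.73% of all 27025 genes of the table. ACAAAG, a core of the sites of Sox factors, was found in 7 of 24 genes and in 21.02% of all genes. Mag, Cnp and Opalin hold both sets of letters. A match of letters is a description of the window and not evidence of a bound site. The 250 bases before the start are shown for 3 myelin genes that hold the Myrf letters and rose between the ages, and for the precursor gene Pdgfra, which fell and has neither set of letters there, with the Myrf letters in capitals on either strand (CTGGCAC or its reverse complement GTGCCAG).
Mag (chr7:30914923-30915172, minus strand): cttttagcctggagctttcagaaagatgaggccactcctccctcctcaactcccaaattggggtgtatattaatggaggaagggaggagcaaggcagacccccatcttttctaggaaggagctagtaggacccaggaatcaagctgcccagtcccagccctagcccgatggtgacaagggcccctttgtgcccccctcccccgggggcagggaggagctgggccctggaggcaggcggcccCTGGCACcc
Cnp (chr11:100574689-100574938, plus strand): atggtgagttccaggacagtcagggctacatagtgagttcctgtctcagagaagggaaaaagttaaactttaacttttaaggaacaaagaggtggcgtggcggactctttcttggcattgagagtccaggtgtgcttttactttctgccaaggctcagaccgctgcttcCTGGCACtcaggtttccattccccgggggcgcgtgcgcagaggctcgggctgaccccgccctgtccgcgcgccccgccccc
Hapln2 (chr3:88027512-88027761, minus strand): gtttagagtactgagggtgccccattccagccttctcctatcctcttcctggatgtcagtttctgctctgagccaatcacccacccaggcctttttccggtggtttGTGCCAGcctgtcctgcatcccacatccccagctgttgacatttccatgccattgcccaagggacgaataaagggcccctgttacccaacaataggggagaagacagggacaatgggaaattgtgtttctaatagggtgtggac
Pdgfra (chr5:75152001-75152250, plus strand): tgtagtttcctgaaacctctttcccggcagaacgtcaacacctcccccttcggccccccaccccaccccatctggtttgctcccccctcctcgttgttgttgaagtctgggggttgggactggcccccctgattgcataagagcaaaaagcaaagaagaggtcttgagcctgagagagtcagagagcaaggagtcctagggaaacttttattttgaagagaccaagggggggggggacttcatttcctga

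The targeted gene and a few properties of the libraries bear on the results below. Arid1b was 3271, 3281, 3292, 3309 and 3164 normalized counts in WT and 2162, 2334, 2246, 2248 and 2180 in HT at P10, in replicates 1 to 5, with no overlap. At P120 it was 3171, 2320, 3036, 3224 and 3229 in WT-Veh and 2342, 3361, 1973, 2480 and 2227 in HT-Veh. The library labelled HT-Veh replicate 2 was at a WT level and the library labelled WT-Veh replicate 2 at an HT level, so both go against their labels. The comparison of the vehicle groups leaves both out here. They are also missing among the libraries listed with the results of the study for that comparison, although its text gives full groups of mice. Other P120 comparisons are given with and without them. Arid1b did not overlap between HT-Flx (2164, 2554, 2171, 2616 and 2356) and WT-Flx (3392, 3305, 3166, 2961 and 2963).

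The libraries also differed in their balance of GC-rich and GC-poor genes, measured as the mean log2 deviation of the tenth of genes with the highest GC content minus that of the tenth with the lowest. Each deviation was from the mean of the gene over the libraries of the same age, so this balance does not compare the ages. Its values were 0.56 to 1.33 for HT-Flx libraries but -0.81 to -0.62 for WT-Flx libraries, with no overlap, while the vehicle libraries lay between -0.78 and 0.84. At P10 it stayed between -0.10 and 0.09 in all mice but HT replicate 1, at -0.35. The median GC content of the 34 genes was 52.4%, against 49.7% in all genes. The summed level of 9 Hox genes, which are transcribed in the hindbrain and spinal cord, was under 50% of the median of their age in 6 libraries: P10 WT replicate 1, P10 HT replicates 1 and 3, WT-Veh replicate 1 and WT-Flx replicates 2 and 5. P10 HT replicate 1 stood at 5.6% of the median, with 5 of the 9 genes below a normalized count of 1. Whether dissected tissue differed was not tested.

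Per kilobase of the longest coding transcript, Mbp, which encodes the basic protein that compacts the membrane layers, was the highest of the 34 genes in WT brains, at 18751 normalized counts per kb at P10 and 25274 in WT-Veh at P120. Cnp (5826 per kb), Mobp (4702) and Mag (3116) followed at P10, and Mobp (8666), Cnp (7681) and Trf (5163) at P120. The lowest at P10 was Opalin at 84.1 per kb, and at P120 Enpp6 at 65.1 per kb. The order therefore began with the same gene at both ages and ended with a myelin gene at P10 and with a premyelinating gene at P120. Of the 34 genes, 13 share exon bases with another annotated gene, among them Mobp, Nkx2-2, Gpr17, Cnp, Nkx6-2 and Ndrg1, so their counts may take in reads of a neighbour, since no source used here states that strand was counted. The Mbp value also sums the transcripts of the classic protein and the longer Golli transcripts of the same locus.

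**Figure D1:**
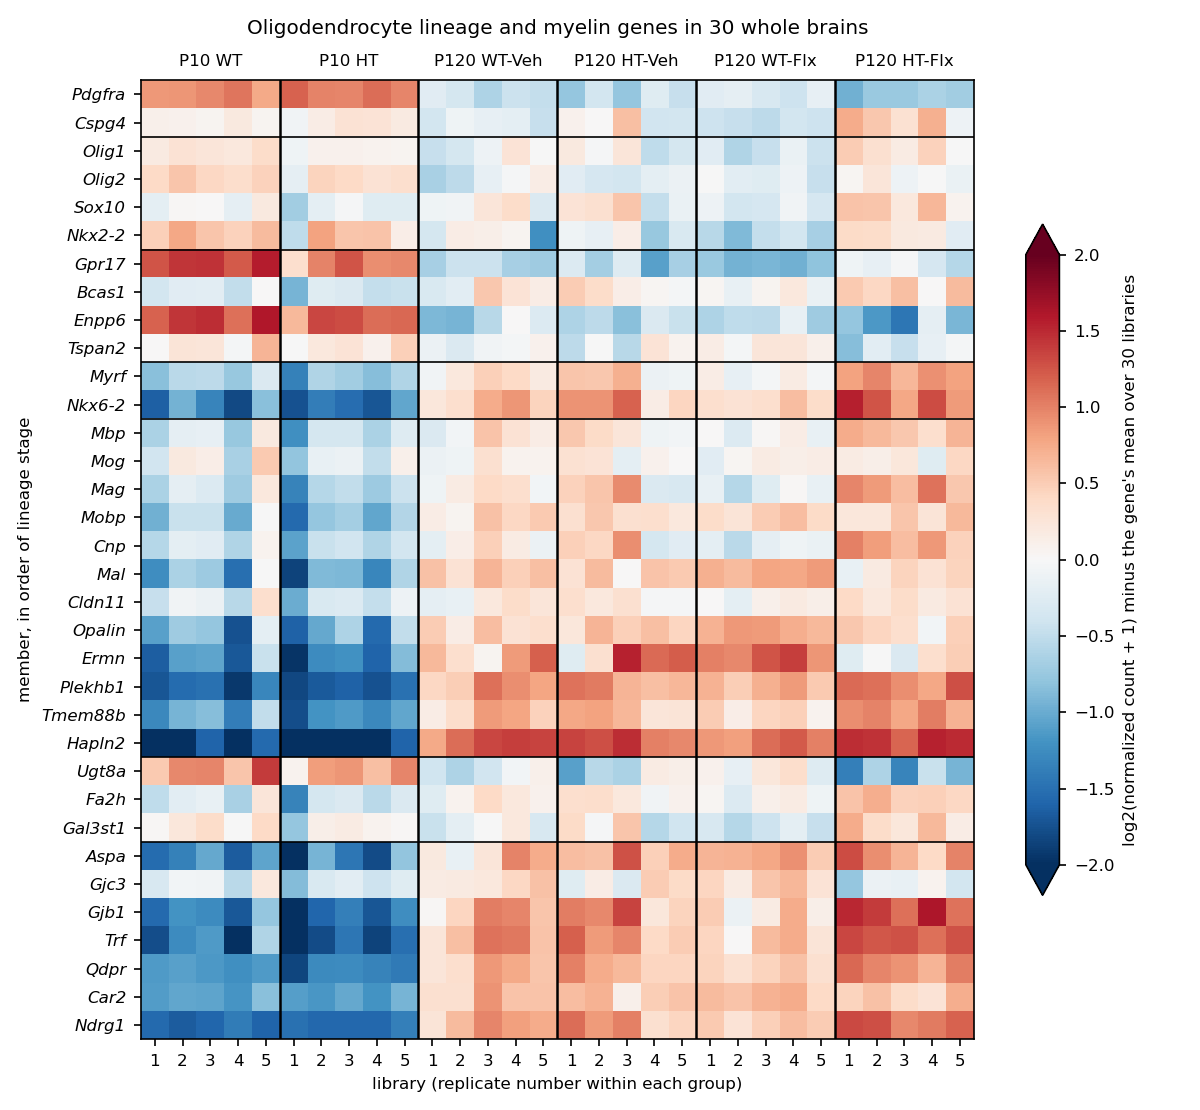
Log2(normalized count + 1) of each of the 34 genes (rows, by lineage stage) in each of the 30 libraries (columns, by group and replicate number), as the difference from the mean of the gene over all libraries. The Pdgfra, Gpr17 and Enpp6 rows are red at P10, most myelin and metabolic rows are red at P120, P10 HT replicate 1 has the lowest P10 value in 27 rows, and the HT-Flx columns differ from the WT-Flx columns in both directions.

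The largest differences among these genes were between the ages, and they largely followed lineage stage. In WT mice, 18 of 34 genes were higher and 10 were lower in P120 WT-Veh than at P10 (limma, adjusted p under 0.05), against 28.9% of all 17927 genes tested that were higher and 29.4% that were lower. All 7 metabolic and coupling genes, both differentiation factors and 9 of 12 sheath and paranode genes rose, while 8 of the 10 genes of precursors, lineage factors and premyelinating cells and 2 of 3 lipid synthesis genes fell. The median log2 fold change was 0.45 over the 34 genes and -0.013 over all genes tested. In bulk tissue, fewer cells of a type and less RNA per cell cannot be told apart.

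Among precursor genes, Pdgfra, the receptor for the growth factor that keeps precursors dividing, was 3731, 3802, 4017, 4324 and 3491 normalized counts in P10 WT and 1749, 1604, 1341, 1520 and 1478 in WT-Veh. It was 4638, 4069, 4049, 4474 and 4063 in P10 HT and 1205, 1594, 1204, 1738 and 1490 in HT-Veh. Every P10 mouse was above every P120 vehicle mouse, and the log2 fold change was -1.33 ± 0.081 (SE) in WT and -1.57 ± 0.12 in HT (limma, adjusted p = 3.2e-08 and 6.07e-07). Cspg4, which encodes the NG2 proteoglycan, fell less, by 0.35 on the log2 scale in WT (adjusted p = 0.00176), with a difference of -0.18 in HT that did not pass (adjusted p = 0.406). Of the lineage factors, Olig1 (-0.39), Olig2 (-0.68) and Nkx2-2 (-0.83) fell in WT, and only Olig2 of the 4 passed in HT (-0.51). Sox10, which is kept on from precursor to myelinating cell, is the lineage factor that passed in neither genotype.

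Sox10 was 2040, 2372, 2363, 2060 and 2672 in P10 WT and 2205, 2217, 2778, 3017 and 1922 in WT-Veh. In HT it was 1441, 2047, 2292, 1979 and 1981 at P10 and 2841, 2910, 3450, 1673 and 2126 in HT-Veh. The ages overlapped in both genotypes, with log2 fold changes of 0.065 ± 0.12 in WT and 0.39 ± 0.19 in HT (limma, adjusted p = 0.666 and 0.1).

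In WT mice the largest falls of the 34 genes were in the premyelinating genes Gpr17 and Enpp6. Gpr17, a receptor carried by committed precursors and lost as they mature, was 8539, 9613, 9788, 8408 and 10689 in P10 WT and 2252, 2669, 2647, 2253 and 2181 in WT-Veh. In HT it was 4511, 7111, 8543, 6804 and 6995 at P10 and 2962, 2225, 2998, 1693 and 2269 in HT-Veh. No P120 vehicle mouse reached the lowest P10 mouse, and the log2 fold change was -1.97 ± 0.085 in WT and -1.48 ± 0.19 in HT (limma, adjusted p = 2.74e-09 and 3.34e-05). Enpp6, a choline phosphodiesterase of newly forming oligodendrocytes, was 1022, 1220, 1264, 967 and 1379 in P10 WT and 243, 237, 306, 456 and 375 in WT-Veh, and 709, 1140, 1116, 979 and 1004 in P10 HT and 293, 314, 252, 370 and 333 in HT-Veh. It fell by 1.89 on the log2 scale in WT and fell by 1.65 in HT, with no overlap in either.

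Bcas1, a protein of early myelinating cells that remains in myelin, did not fall. It was 3924, 4359, 4383, 3616 and 5120 in P10 WT and 4134, 4412, 7405, 6128 and 5629 in WT-Veh, and 2652, 4285, 4165, 3640 and 3734 in P10 HT and 7252, 6576, 5549, 5227 and 4944 in HT-Veh. The WT ages overlapped (0.35 ± 0.15, adjusted p = 0.0556) and the HT ages did not (0.68 ± 0.15, adjusted p = 0.00224). Tspan2, a tetraspanin of differentiating oligodendrocytes, fell by 0.31 on the log2 scale in WT (limma, adjusted p = 0.0406), though it stood at 0.043 (adjusted p = 0.793) after correction for GC content and length of the transcript, and in HT it was -0.35 (adjusted p = 0.0933).

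Both differentiation factors rose. Myrf, the membrane-tethered factor that turns on myelin genes, was 1663, 2032, 2053, 1760 and 2426 in P10 WT and 2822, 3437, 4120, 3904 and 3360 in WT-Veh, and 1157, 1942, 1833, 1635 and 1947 in P10 HT and 4362, 4314, 4864, 2723 and 2800 in HT-Veh. Every P120 vehicle mouse was above every P10 mouse, by 0.83 ± 0.12 on the log2 scale in WT and 1.15 ± 0.19 in HT (limma, adjusted p = 4.97e-05 and 0.000348). Nkx6-2, a homeodomain factor of maturing oligodendrocytes, rose by 1.83 and 2.19.

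The sheath genes rose unevenly. Hapln2, a link protein of the perinodal matrix, had the largest rise of all 34 genes, 3.34 ± 0.23 on the log2 scale in WT and 3.90 ± 0.26 in HT, followed among sheath genes by Plekhb1 (2.34 and 2.48) and Ermn, a cytoskeletal protein of mature oligodendrocytes (1.80 and 2.17). Tmem88b (1.51 and 1.84), the myelin membrane gene Mal (1.35 and 1.52) and Mobp, a basic protein of compact myelin (0.92 and 1.27), also rose in both genotypes. Cnp, the enzyme that keeps cytoplasmic channels of myelin open, rose by 0.40 and 0.82, and Cldn11, the tight junction protein of myelin, was 0.27 in WT (adjusted p = 0.156) and rose by 0.60 in HT.

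Mbp was 69838, 95323, 97057, 63929 and 123586 in P10 WT and 88464, 104753, 161024, 132223 and 119743 in WT-Veh. In HT it was 46226, 84640, 84696, 70010 and 90537 at P10 and 157050, 140745, 128896, 102145 and 104502 in HT-Veh. The WT ages overlapped (0.44 ± 0.19, adjusted p = 0.0573), with P10 WT replicate 5 above 3 of the 5 WT-Veh mice, whereas all HT-Veh mice were above all P10 HT mice (0.77 ± 0.19, limma adjusted p = 0.00488). Mog, a protein of the outermost myelin layer, was 1200, 1780, 1715, 995 and 2245 in P10 WT and 1445, 1467, 1952, 1648 and 1644 in WT-Veh, and 902, 1410, 1437, 1112 and 1675 in P10 HT and 1924, 1885, 1359, 1653 and 1565 in HT-Veh. It passed in neither genotype (0.091 ± 0.18 in WT and 0.38 ± 0.16 in HT, adjusted p = 0.693 and 0.0689). Mag, the adhesion protein of the innermost layer next to the axon, was 5947, 8134, 7627, 5604 and 10610 in P10 WT and 8697, 10292, 12131, 11557 and 8807 in WT-Veh, and 3652, 6203, 6562, 5543 and 6838 in P10 HT and 12593, 13474, 17726, 7546 and 7386 in HT-Veh. It rose in both (0.47 ± 0.16 and 0.98 ± 0.25), with an overlap in WT where P10 replicate 5 exceeded 3 WT-Veh mice. Opalin, an oligodendrocyte membrane glycoprotein, was 128, 167, 159, 80.8 and 238 in P10 WT and 390, 303, 422, 336 and 347 in WT-Veh, and 88.4, 134, 178, 92.6 and 194 in P10 HT and 320, 438, 383, 415 and 369 in HT-Veh. It did not overlap between the ages in either genotype (1.29 ± 0.22 and 1.54 ± 0.22).

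Of the lipid synthesis genes, Ugt8a, the enzyme that makes galactocerebroside, was 3081, 4168, 4204, 3138 and 5620 in P10 WT and 1615, 1389, 1632, 2051 and 2284 in WT-Veh, and 2243, 3815, 3921, 3252 and 4183 in P10 HT and 1010, 1454, 1382, 2385 and 2324 in HT-Veh. It fell by 1.16 on the log2 scale in WT and fell by 1.07 in HT, opposite to most sheath genes, and P10 HT replicate 1 alone reached into the HT-Veh range. Fa2h, which hydroxylates the fatty acids of myelin galactolipids, was 0.35 in WT (adjusted p = 0.0654) and rose by 0.74 in HT, and Gal3st1, the sulfotransferase that makes sulfatide, fell by 0.35 in WT and was 0.068 in HT (adjusted p = 0.824).

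All 7 metabolic and coupling genes rose in both genotypes. Aspa, which splits N-acetylaspartate to supply acetate, was 143, 164, 204, 131 and 201 in P10 WT and 480, 377, 495, 832 and 698 in WT-Veh, and 103, 220, 152, 120 and 242 in P10 HT and 643, 630, 1011, 580 and 696 in HT-Veh. The ages did not overlap (1.73 ± 0.2 in WT and 2.13 ± 0.24 in HT). The iron carrier Trf rose by 2.07 and 2.58, the stress-responsive gene Ndrg1 by 2.25 and 2.25, the connexin 32 gene Gjb1 by 1.89 and 2.53, the pteridine reductase Qdpr by 1.69 and 2.08, and the carbonic anhydrase Car2 by 1.58 and 1.58. Gjc3, which encodes connexin 29, rose least (0.46 and 0.51).

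Taking HT mice as a whole, 22 of 34 genes were higher and 5 lower at P120 (HT-Veh) than at P10 (limma, adjusted p under 0.05), against 25.8% and 25.3% of all 17989 genes tested. The 18 genes that rose in WT also rose in HT, 5 fell in both (Pdgfra, Olig2, Gpr17, Enpp6 and Ugt8a), and Bcas1, Mbp, Cldn11 and Fa2h passed in HT and not in WT. The difference between the genotypes was tested directly as an interaction of genotype and age. None of the 34 genes passed, nor did any of the 17978 genes tested (0% of genes, limma), although 32 of the 34 interaction terms were positive, with a median of 0.32. At an unadjusted p under 0.05 there were 2 genes of the 34, Gpr17 (0.49 ± 0.22, adjusted p = 0.877) and Qdpr (0.38 ± 0.18, adjusted p = 0.877), against 3.4% of all genes. Without P10 HT replicate 1 the median of the interaction terms was 0.19. Leaving out the vehicle library numbered 2, which goes against its label, gave 18 higher and 8 lower genes in WT and 21 higher and 5 lower in HT. In those fits 4998 of all 17936 genes were higher and 5058 lower in WT, and 4130 and 4091 of 18015 in HT (limma). The median interaction was 0.24 with both libraries left out.

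**Figure D2:**
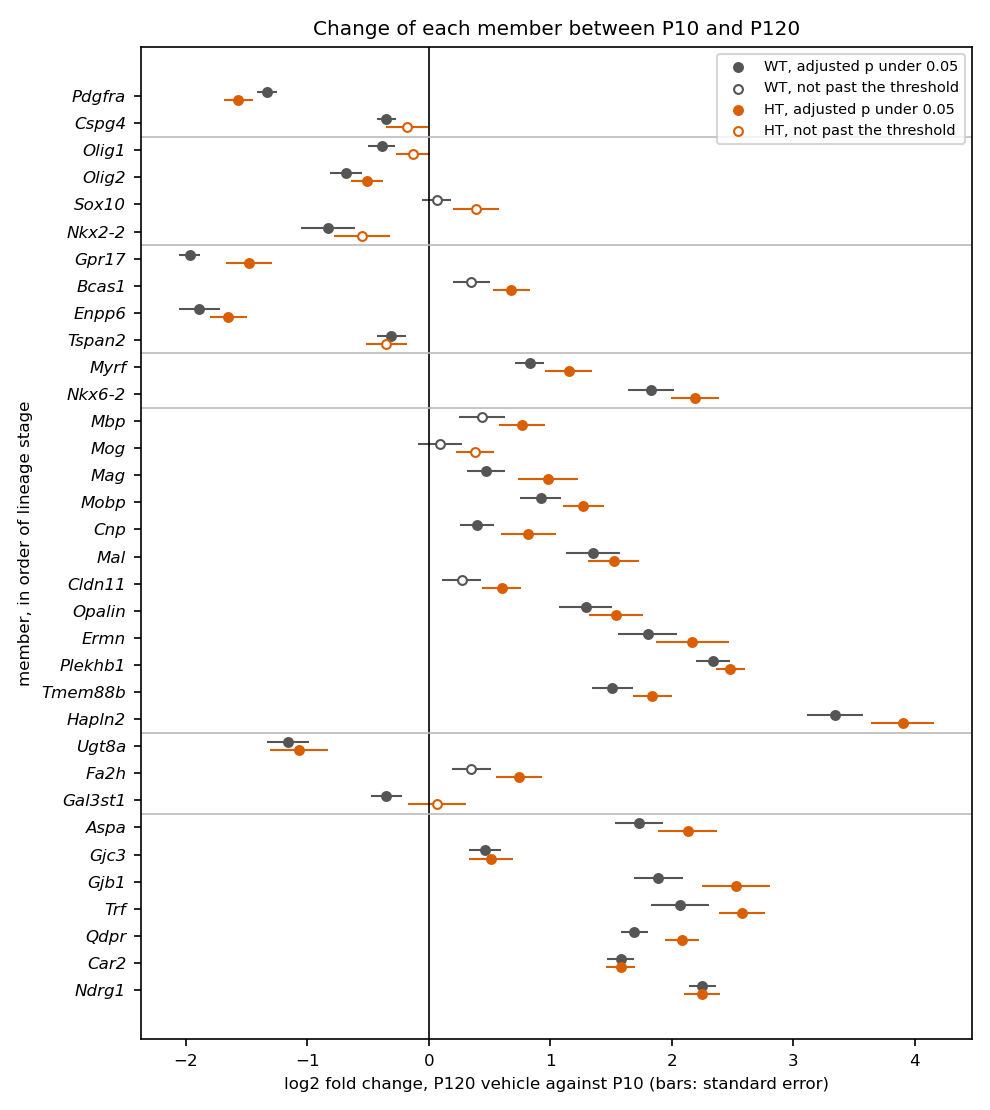
Log2 fold change of each of the 34 genes between P10 and P120 vehicle mice (x axis, bars are the standard error of the limma fit) in WT (grey) and HT (orange), by lineage stage from the top; filled points passed an adjusted p of 0.05. Pdgfra, Gpr17, Enpp6 and Ugt8a lie furthest to the left, at -1.07 or below in both genotypes, and Hapln2 furthest to the right, at 3.34 in WT and 3.90 in HT.

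A further 58 genes of oligodendrocytes, or of signals and receptors of the lineage, were listed by function and are called other oligodendrocyte genes here. Of these, 17 rose and 27 fell in WT and 15 rose and 22 fell in HT between the ages. In WT, 12 of 13 other precursor genes fell, as did 9 of 10 other genes of committed and newly formed cells, while 11 of 19 other mature genes rose and 2 fell. Of the 16 signals and receptors of the lineage, 5 rose and 4 fell. Which cells of the whole brain made the RNA of these 16 genes, Igf1 among them, cannot be told here. The largest rises were in Klk6, a protease of mature oligodendrocytes (3.42 ± 0.34 in WT and 4.02 ± 0.41 in HT), and Ppp1r14a (2.51 and 2.92). The largest falls were in the growth factor Igf1 (-2.10 and -2.27), in the small GTPase gene Rras2 and the transcription factor gene Zfp488 in WT (-1.99 and -1.99) and in the matrix proteoglycan Vcan in HT (-2.18).

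At P10, most of the 34 genes had lower means in HT than in WT brains, by differences that did not pass the test. None passed the threshold, against 0.0224% of 17896 genes tested (4 genes, limma). The log2 fold change was negative in 31 of 34 genes, with a median of -0.25, against -0.0091 in all genes tested, and the 3 positive values were Pdgfra, Cspg4 and Ndrg1. At an unadjusted p under 0.05 there were 5 genes, Pdgfra higher and Olig1, Sox10, Gpr17 and Qdpr lower, against 12.6% of all genes. In Olig1 and Qdpr the genotypes did not overlap (two-sided exact permutation p = 0.00794 for each, the smallest that 5 against 5 mice can give). How many of all genes did not overlap was not counted, in this or any other comparison.

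Olig1, a basic helix-loop-helix factor of the lineage, was 6255, 6730, 6486, 6382 and 7144 in WT and 5205, 5847, 5844, 5818 and 5730 in HT. All WT mice were above all HT mice, by a small margin (log2 fold change -0.21 ± 0.046, limma adjusted p = 0.215). Gpr17 had the largest difference with an unadjusted p under 0.05, -0.49 ± 0.13 (limma, adjusted p = 0.269, exact permutation p = 0.0238), and a single HT mouse, replicate 3 at 8543, was above the lowest WT mouse at 8408. Qdpr was 1923, 1986, 1902, 1797 and 1927 in WT and 1176, 1733, 1765, 1666 and 1579 in HT, a log2 fold change of -0.28 ± 0.092 (adjusted p = 0.315). Both precursor surface genes, Pdgfra (0.14 ± 0.06) and Cspg4 (0.069 ± 0.064), had positive values, and neither passed. For the other genes of the 12 described by library, the log2 fold changes were -0.25 for Enpp6, -0.22 for Bcas1, -0.25 for Sox10, -0.24 for Myrf, -0.26 for Mbp, -0.25 for Mog, -0.39 for Mag, -0.16 for Opalin, -0.21 for Ugt8a and -0.067 for Aspa, with adjusted p from 0.377 to 0.908 (limma).

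These genes moved together from mouse to mouse at P10. HT replicate 1 was the lowest of the 10 mice in 27 of the 34 genes, and WT replicate 5 the highest in 27. The median deviation from the mean of 10 mice was -0.64 in HT replicate 1 and 0.48 in WT replicate 5, and lay between -0.21 and 0.21 in the other 8 mice. The 7 genes in which HT replicate 1 was not the lowest were Pdgfra, in which it was the highest mouse, and Tspan2, Nkx6-2, Opalin, Plekhb1, Car2 and Ndrg1. HT replicate 1 is also the library with the lowest summed Hox level and a GC balance of -0.35. Their part in its low myelin values was not tested. Without it the median log2 fold change of the 34 genes was -0.11, with -0.35 for Gpr17 (adjusted p = 0.214), -0.18 for Olig1, -0.18 for Qdpr, -0.24 for Mag and -0.090 for Mbp, and no gene of the 34 passed (limma).

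**Figure D3:**
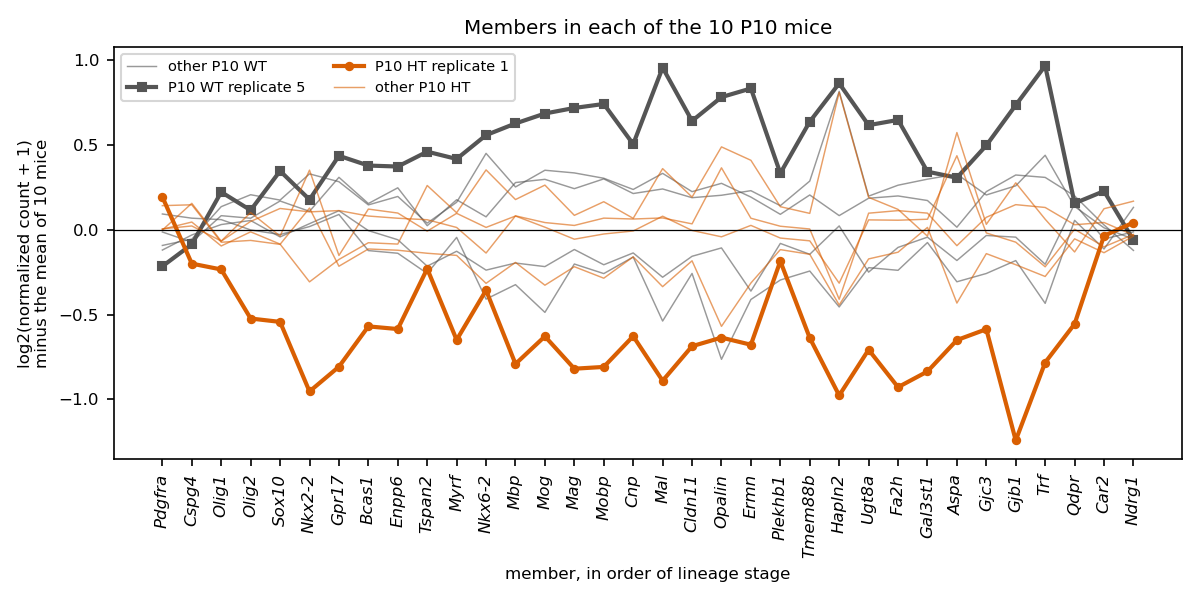
Log2(normalized count + 1) of each of the 34 genes (x axis, by lineage stage) in each P10 mouse, minus the mean of the 10 mice; grey lines are WT and orange lines HT. HT replicate 1 (thick orange) is the lowest mouse in 27 genes and WT replicate 5 (thick grey) the highest in 27, and the medians of the other 8 mice lie between -0.21 and 0.21.

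Of the 58 other oligodendrocyte genes, none passed at P10 (limma). At an unadjusted p under 0.05 there were 6 higher and 6 lower in HT. Among other precursor genes 8 of 13 had a positive log2 fold change (median 0.074), while 18 of 19 other mature genes had a negative one (median -0.20). The mean log2 value of these mature genes was 9.15 in HT replicate 1, against 9.58 to 9.84 in the other HT mice. In WT mice it was 9.57 to 10.09. No values without HT replicate 1 are given for these lists. Astrocyte markers summed to 105122 to 128846 normalized counts in WT and 111552 to 126711 in HT, neuron markers to 124893 to 141113 and 129440 to 135787, and Schwann cell markers to 712 to 900 and 707 to 1090. Those ranges overlapped, whereas those of red blood cell genes (10377 to 13112 in WT and 5258 to 8444 in HT) and of endothelial and mural genes (11184 to 12062 in WT and 9935 to 10845 in HT) did not. The part of both in the results was not tested.

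In vehicle-treated mice at P120 no difference between the genotypes was detected in these genes. HT-Veh and WT-Veh (replicates 1, 3, 4 and 5 of each) gave no call among the 34 genes, and 0% of 17784 genes tested passed (limma). The targeted gene Arid1b did not pass either (log2 fold change -0.49 ± 0.13), so the lack of a call does not show equal levels. At an unadjusted p under 0.05 there were 0 of 34 genes, against 1.29% of all genes. The log2 fold changes ran from -0.25 (Gjc3) to 0.28 (Cspg4), with 15 positive and 19 negative and a median of -0.0067, against 0.0067 in all genes. For Mbp the difference was -0.015 ± 0.23, for Mag 0.053 ± 0.27, for Gpr17 0.055 ± 0.19, for Pdgfra -0.12 ± 0.17 and for Ugt8a -0.17 ± 0.27 (SE, 4 mice each). The median over all 10 vehicle libraries as labelled was 0.067, and none passed. The smallest exact permutation p that 4 against 4 mice can give is 0.0286, and the smallest in the 34 genes was 0.143, for Mal.

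The libraries labelled HT-Veh were split within the group, in which replicate 2 goes against its label by its Arid1b level. In Mag, replicates 1, 2 and 3 were at 12593, 13474 and 17726 and replicates 4 and 5 at 7546 and 7386, and Cnp, Myrf, Cspg4, Gal3st1 and Gjb1 were also higher in each of replicates 1 to 3 than in replicates 4 and 5, while Ugt8a and Tspan2 were higher in replicates 4 and 5. The GC balance of these libraries was 0.84, 0.32 and 0.37 in replicates 1 to 3 and -0.78 and -0.66 in replicates 4 and 5. The 11 of the 34 genes with the highest GC content (55.8% or more) deviated by 0.21, 0.12 and 0.45 from the P120 mean in replicates 1 to 3 and by -0.43 and -0.31 in replicates 4 and 5. The part of the GC balance in this split was not tested.

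Of the 58 other oligodendrocyte genes none passed between HT-Veh and WT-Veh (limma), with 0 higher and 2 lower at an unadjusted p under 0.05.

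Early postnatal fluoxetine gave no call among these genes within either genotype. In HT mice (HT-Flx against HT-Veh) none of 34 passed, nor did any of 17676 genes tested (0%, limma), but 12 were higher and 1 was lower at an unadjusted p under 0.05, against 23.1% of all genes in either direction. In WT mice (WT-Flx against WT-Veh) none of 34 passed, nor did any of 17865 genes (0%, limma), with 4 higher and 6 lower at an unadjusted p under 0.05, against 25.2% of all genes. The median log2 fold change was 0.28 in HT and -0.12 in WT, against 0.020 and -0.0014 in all genes, and the lowest adjusted p was 0.215 in HT and 0.0871 in WT.

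In HT mice the largest positive differences were in Mag (0.54 ± 0.23), Gjb1 (0.54 ± 0.2), Cnp (0.51 ± 0.23) and Myrf (0.51 ± 0.17), and the largest negative ones in Ermn (-0.73 ± 0.3) and Ugt8a (-0.54 ± 0.25). Myrf was 5166, 5837, 4689, 5609 and 5200 in HT-Flx, against 4362, 4314, 4864, 2723 and 2800 in HT-Veh. Only the library labelled HT-Veh replicate 3 exceeded the lowest HT-Flx mouse (exact permutation p = 0.0159). Mbp was 181586, 170245, 157148, 136712 and 172854 in HT-Flx (0.38 ± 0.16 against HT-Veh, exact permutation p = 0.0317, limma adjusted p = 0.215). In Fa2h alone the groups did not overlap (2165, 2415, 2022, 2029 and 1956 in HT-Flx and 1843, 1869, 1684, 1395 and 1547 in HT-Veh, exact permutation p = 0.00794, limma adjusted p = 0.215). Without the library labelled HT-Veh replicate 2 the median was 0.30 and none passed, and after correction for GC content and length of the transcript it was 0.12, with none past the threshold.

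In WT mice the differences were smaller and many had the other sign. Opalin was 442, 503, 493, 455 and 431 in WT-Flx, above every WT-Veh mouse (0.38 ± 0.1, exact permutation p = 0.00794, limma adjusted p = 0.0871). Gpr17 was 2152, 1854, 1906, 1848 and 2049 in WT-Flx, below every WT-Veh mouse (-0.29 ± 0.08, exact permutation p = 0.00794, limma adjusted p = 0.0884). Mag (-0.37 ± 0.12) and Cnp (-0.32 ± 0.12) were negative and Ermn (0.48 ± 0.18) and Ugt8a (0.32 ± 0.15) positive, each the reverse of its sign in HT. Without WT-Veh replicate 1, Gpr17 (-0.31, adjusted p = 0.0487) and Opalin (0.41, adjusted p = 0.0448) passed, and without WT-Veh replicate 5, Nkx2-2 passed (-0.58, adjusted p = 0.0487). These were 2 and 1 of the 34 genes, against 1.55% of all genes higher and 6.3% lower without replicate 1 and 0.386% higher and 3.11% lower without replicate 5 (limma). Without the library labelled WT-Veh replicate 2 the median was -0.16 and none passed, and after the GC and length correction it was -0.018. Across the 34 genes, GC content and log2 fold change had a Spearman rho of 0.76 in HT and of -0.73 in WT, which the correction took to -0.028 and 0.018. These are descriptions across genes of the same libraries, and the correction removes the link with GC content by design.

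Of the 58 other oligodendrocyte genes none passed in either genotype (limma), with 9 higher and 6 lower in HT and 10 higher and 10 lower in WT at an unadjusted p under 0.05.

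**Figure D4:**
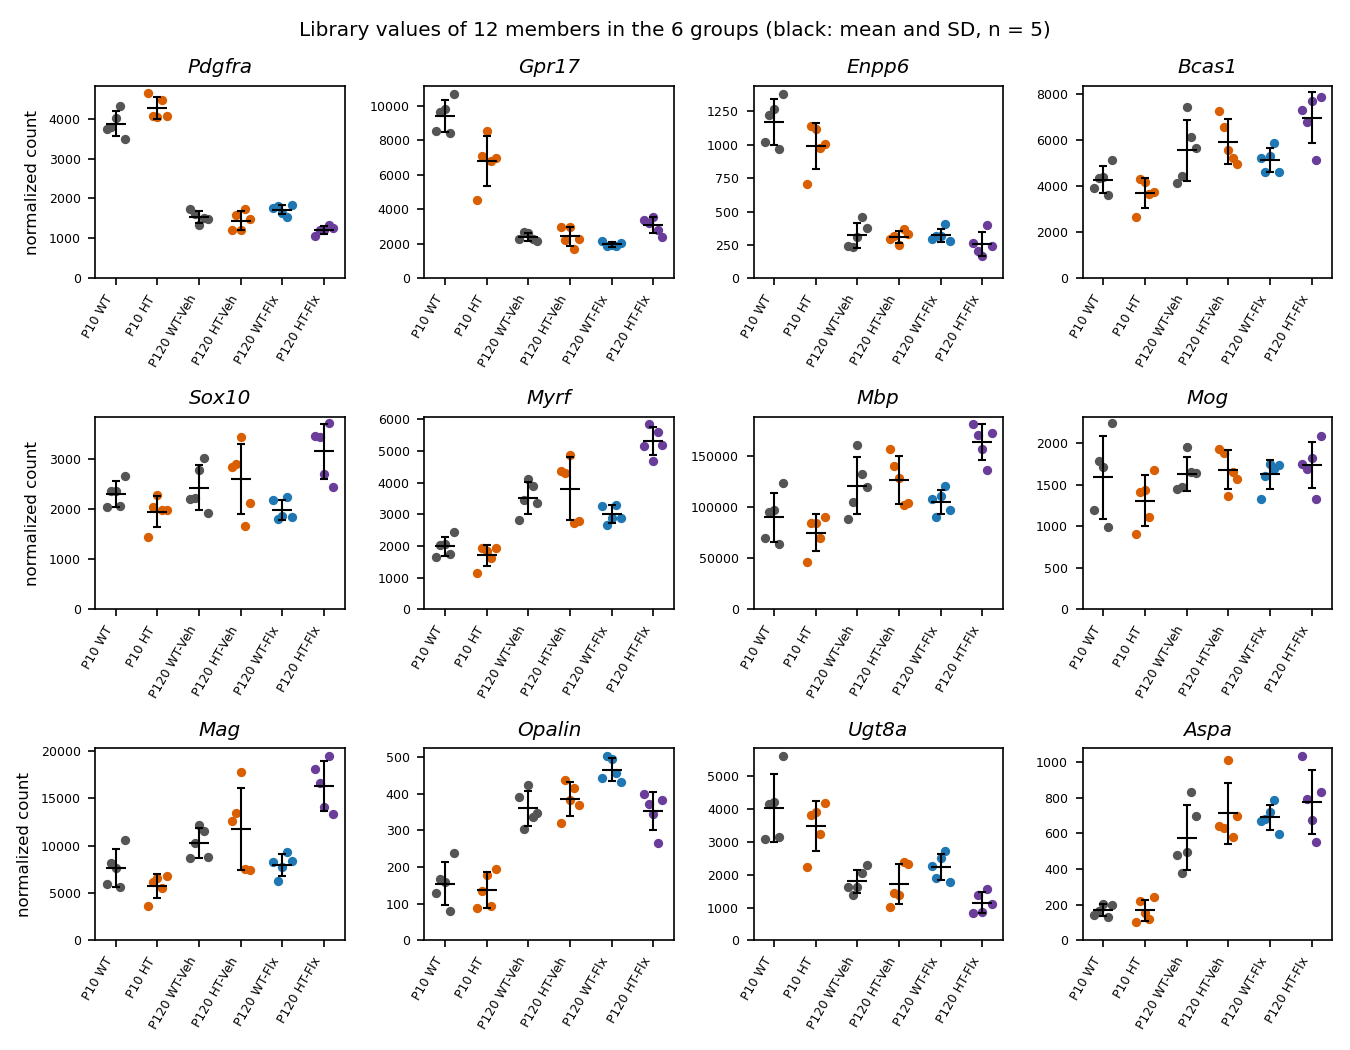
Normalized counts of 12 genes in every library of the 6 groups (points, each panel from 0), with the mean and SD of 5 libraries in black. Pdgfra, Gpr17, Enpp6 and Ugt8a are lower at P120 than at P10, Aspa, Opalin and Myrf are higher, and at P120 the HT-Flx points lie above all WT-Flx points in Gpr17, Sox10, Myrf, Mbp and Mag and below all of them in Pdgfra, Opalin and Ugt8a.

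Fluoxetine-treated HT and WT brains differed in most of these genes as deposited, in both directions. In HT-Flx against WT-Flx, 21 of 34 genes were higher and 7 lower (limma, adjusted p under 0.05), against 33.1% and 30.5% of all 17799 genes tested, so most of the transcriptome passed too. The median log2 fold change was 0.48, against 0.023 in all genes. The GC balance of the same libraries did not overlap between the groups (0.56 to 1.33 and -0.81 to -0.62). The 21 higher genes had a GC content of 48.1% to 65.7% and the 7 lower ones of 38.0% to 48.9%. Once GC content and transcript length were corrected for, 14 genes were higher and 4 lower, against 20.3% and 15.6% of 17788 genes, with a median of 0.15.

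The 12 genes that were higher both as deposited and after the correction were Gpr17, Bcas1, Myrf, Mbp, Mag, Cnp, Plekhb1, Tmem88b, Gjb1, Trf, Qdpr and Ndrg1. Mbp was 181586, 170245, 157148, 136712 and 172854 in HT-Flx, against 108521, 90045, 110642, 120403 and 97752 in WT-Flx. Every HT-Flx mouse was above every WT-Flx mouse, by 0.63 ± 0.1 on the log2 scale (limma, adjusted p = 0.00023) and by 0.48 ± 0.098 after the correction (adjusted p = 0.00292). Mag was 18106, 16611, 14055, 19497 and 13307 in HT-Flx, against 8286, 6215, 7760, 9360 and 8322 in WT-Flx, and Cnp was 33805, 29952, 25767, 30638 and 23097 in HT-Flx, against 14618, 11568, 14829, 15711 and 15263 in WT-Flx. Neither overlapped, and their log2 fold changes went from 1.03 ± 0.13 to 0.45 ± 0.099 and from 0.99 ± 0.12 to 0.53 ± 0.097 with the correction.

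Myrf was 3277, 2655, 2879, 3305 and 2870 in WT-Flx, all below the HT-Flx values given above, and its log2 fold change of 0.82 ± 0.088 became 0.23 ± 0.067 (limma, adjusted p = 0.0173). Gpr17 was 3392, 3202, 3535, 2827 and 2414 in HT-Flx, above the WT-Flx values given above (0.64 ± 0.11, corrected 0.29 ± 0.097). Bcas1 was 7306, 6786, 7699, 5111 and 7857 in HT-Flx, against 5230, 4590, 5281, 5849 and 4625 in WT-Flx, overlapping through HT-Flx replicate 4 (0.43 ± 0.12, corrected 0.35 ± 0.11). Plekhb1 was 14889, 14620, 12911, 11649 and 16658 in HT-Flx, against 10943, 9514, 11142, 12313 and 9808 in WT-Flx, with HT-Flx replicate 4 below 1 WT-Flx mouse. Its difference grew slightly with the correction (0.39 ± 0.11, corrected 0.51 ± 0.095). Tmem88b was 3360, 3520, 3019, 3582 and 2843 in HT-Flx, against 2496, 1933, 2376, 2448 and 1851 in WT-Flx with no overlap, and its corrected difference, 0.99 ± 0.11, was the largest of the 34 (as deposited 0.56 ± 0.11).

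The remaining 4 of these 12 genes belong to metabolism and coupling. Gjb1 was 1638, 1521, 1244, 1781 and 1225 in HT-Flx, against 824, 532, 646, 965 and 628 in WT-Flx, its difference being the largest as deposited (1.06 ± 0.16, corrected 0.54 ± 0.14). Trf was 19983, 18672, 19192, 17082 and 19116 in HT-Flx, against 10727, 7946, 12255, 13223 and 9471 in WT-Flx. The lowest Trf value of HT-Flx exceeded the highest of WT-Flx (0.83 ± 0.12, corrected 0.52 ± 0.1). Qdpr was 9381, 8252, 7836, 6719 and 8551 in HT-Flx, against 5757, 5215, 5727, 6341 and 5251 in WT-Flx, and Ndrg1 was 7698, 7525, 6029, 6338 and 6973 in HT-Flx, against 4439, 3723, 4291, 4722 and 4403 in WT-Flx. Both were without overlap (0.52 ± 0.096, corrected 0.25 ± 0.076, and 0.68 ± 0.092, corrected 0.36 ± 0.072).

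Pdgfra and Mal were lower both as deposited and after the correction. Pdgfra was 1057, 1221, 1222, 1324 and 1263 in HT-Flx, against 1759, 1818, 1649, 1549 and 1825 in WT-Flx, and Mal 3510, 4394, 5269, 4735 and 5285 in HT-Flx, against 6353, 6028, 6718, 6633 and 6967 in WT-Flx. All HT-Flx mice were below all WT-Flx mice in both genes, by -0.50 ± 0.085 (corrected -0.31 ± 0.082, adjusted p = 0.011) and -0.51 ± 0.11 (corrected -0.39 ± 0.098, adjusted p = 0.00879) on the log2 scale (limma). The Pdgfra counts in HT-Flx were the lowest of the 6 groups, with a mean of 1217 ± 98.9 (SD, n = 5), against 1447 ± 238 in HT-Veh and 1720 ± 119 in WT-Flx.

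Another 9 genes were higher as deposited and did not pass after the correction, among them the precursor gene Cspg4, 3 lineage factors and 2 lipid synthesis enzymes. Cspg4 was 2320, 2023, 1720, 2268 and 1289 in HT-Flx, against 1039, 1009, 964, 1071 and 1042 in WT-Flx (0.88 ± 0.14, corrected 0.15 ± 0.089). Sox10 was 3469, 3440, 2710, 3727 and 2447 in HT-Flx, against 2181, 1807, 1859, 2240 and 1854 in WT-Flx, and its difference changed sign (0.66 ± 0.12, corrected -0.087 ± 0.07). Olig1, at 7844, 6853, 6204, 7586 and 5481 in HT-Flx, against 4700, 3631, 4025, 5006 and 4076 in WT-Flx, changed sign as well (0.66 ± 0.12, corrected -0.031 ± 0.072). In these 3 genes the groups did not overlap, and their GC content is 59.2%, 61.8% and 61.1%. Nkx2-2 was 396, 390, 347, 342 and 260 in HT-Flx, against 207, 164, 217, 234 and 191 in WT-Flx (0.77 ± 0.14, corrected 0.31 ± 0.12), and Nkx6-2 was 1388, 1127, 806, 1165 and 852 in HT-Flx, against 591, 573, 594, 720 and 609 in WT-Flx (0.76 ± 0.14, corrected 0.090 ± 0.089). Fa2h was 2165, 2415, 2022, 2029 and 1956 in HT-Flx, against 1509, 1215, 1576, 1639 and 1378 in WT-Flx (0.54 ± 0.098, corrected 0.079 ± 0.085), and Gal3st1 was 1216, 936, 849, 1144 and 808 in HT-Flx, against 581, 490, 542, 637 and 528 in WT-Flx (0.82 ± 0.13, corrected 0.15 ± 0.081). None of these 4 overlapped. Cldn11 was 6621, 5818, 6474, 5721 and 6133 in HT-Flx, against 5067, 4382, 5386, 5711 and 5440 in WT-Flx with no overlap (0.25 ± 0.086, corrected 0.16 ± 0.074), and Hapln2 was 2024, 1980, 1640, 2118 and 2052 in HT-Flx, against 1326, 1283, 1580, 1704 and 1474 in WT-Flx, with HT-Flx replicate 3 below 1 WT-Flx mouse and a change of sign (0.42 ± 0.1, corrected -0.25 ± 0.1).

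Opalin, Ermn, Ugt8a and Gjc3 were lower as deposited and did not pass after the correction, and all have a GC content of 47.6% or less. Opalin was 400, 371, 345, 265 and 382 in HT-Flx, against 442, 503, 493, 455 and 431 in WT-Flx (-0.41 ± 0.12, corrected -0.086 ± 0.12). Ermn was 1017, 1201, 984, 1527 and 1695 in HT-Flx, against 2431, 2358, 2892, 3136 and 2218 in WT-Flx, and Ugt8a 824, 1385, 857, 1565 and 1115 in HT-Flx, against 2263, 1912, 2497, 2728 and 1779 in WT-Flx. Both have a GC content of 38.0%, had no overlap, and moved to near 0 (-1.04 ± 0.16 to -0.054 ± 0.12 for Ermn and -0.99 ± 0.18 to 0.00046 ± 0.12 for Ugt8a). Gjc3 was 760, 1204, 1181, 1365 and 1013 in HT-Flx, against 1761, 1458, 1905, 2062 and 1572 in WT-Flx and changed sign (-0.68 ± 0.15, corrected 0.092 ± 0.12). Tspan2 was 1987, 3100, 2595, 3188 and 3465 in HT-Flx, against 3968, 3491, 4207, 4228 and 3816 in WT-Flx, lower without overlap as deposited (-0.48 ± 0.14) and higher past the threshold after the correction (0.30 ± 0.079, limma adjusted p = 0.0117).

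The other 6 genes did not pass as deposited. Aspa was 1032, 793, 672, 553 and 829 in HT-Flx, against 670, 679, 718, 787 and 595 in WT-Flx (0.14 ± 0.15) and was higher after the correction (0.80 ± 0.17, limma adjusted p = 0.00335). Olig2 (0.22 ± 0.1, corrected -0.47 ± 0.1) and Mobp (-0.044 ± 0.11, corrected -0.37 ± 0.11) were lower after it. Mog, at 1748, 1687, 1820, 1324 and 2083 in HT-Flx, against 1332, 1605, 1751, 1690 and 1737 in WT-Flx, did not pass either way (0.086 ± 0.12, corrected -0.0056 ± 0.1). Nor did Enpp6, at 264, 204, 165, 401 and 240 in HT-Flx, against 293, 319, 316, 406 and 277 in WT-Flx (-0.39 ± 0.2, corrected 0.46 ± 0.17), or Car2 (-0.13 ± 0.1, corrected -0.035 ± 0.085). Which of the deposited and the corrected values is nearer to the RNA in the tissue was not tested. Leaving out WT-Flx replicates 2 and 5, the libraries of low Hox level, gave 18 higher and 7 lower genes. Of all 17737 genes tested in that fit, 5323 were higher and 4694 lower (limma).

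**Figure D5:**
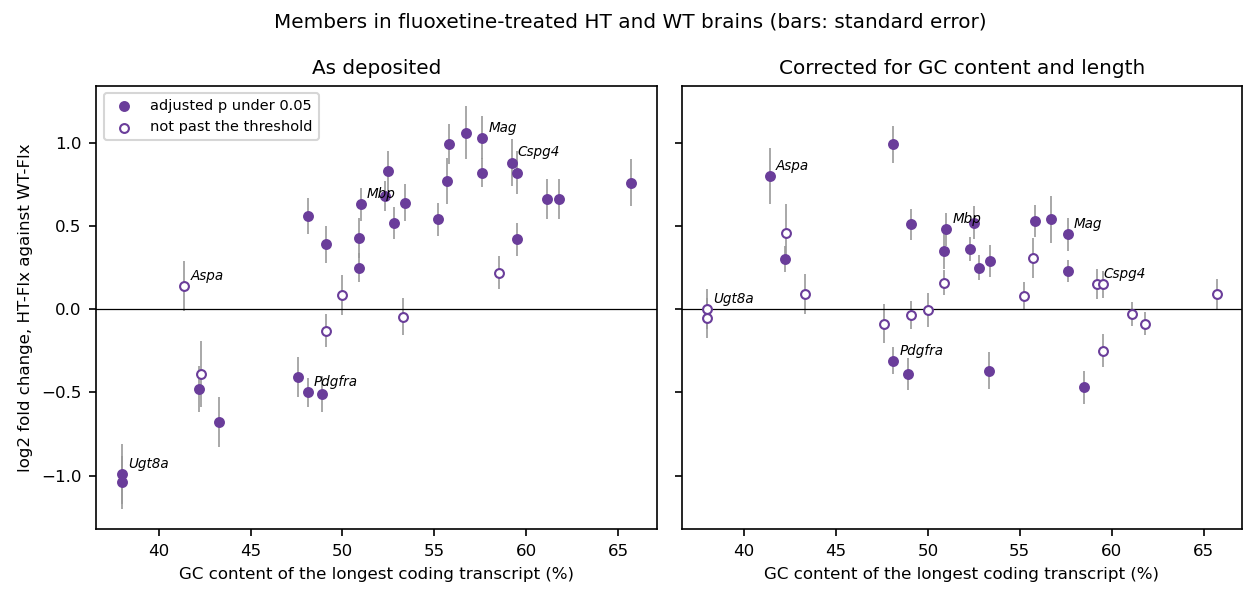
Log2 fold change of each of the 34 genes between HT-Flx and WT-Flx (y axis, bars are the standard error) against the GC content of its longest coding transcript (x axis, percent), as deposited (left) and after correction for GC content and length (right); filled points passed an adjusted p of 0.05. On the left the genes that were lower all lie at 48.9% GC or less and those that were higher at 48.1% or more (Spearman rho 0.76 over 34 genes). On the right the slope, which the correction removes by design, is gone (rho -0.12), while 14 genes were higher and 4 lower past the threshold.

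Of the 58 other oligodendrocyte genes, 24 were higher and 19 lower in HT-Flx than in WT-Flx (limma), and 11 and 8 after the correction. Among other mature genes 10 of 19 were higher and 6 lower, and among other precursor genes 4 of 13 were higher and 7 lower. The largest rises were in C1ql1, a secreted precursor protein (1.09 ± 0.15, corrected 0.42 ± 0.14), and Ppp1r14a (0.98 ± 0.16, corrected 0.49 ± 0.13). The largest falls were in Anln, a septin-binding protein of myelin (-1.57 ± 0.3, corrected -1.01 ± 0.23), and the protocadherin gene Pcdh15 (-1.52 ± 0.21, corrected -0.85 ± 0.13), and all 4 passed both ways. Neuron markers summed to 154654 to 220985 normalized counts in HT-Flx and 167416 to 181284 in WT-Flx, astrocyte markers to 133600 to 168718 and 138756 to 166337, microglia markers to 8556 to 13367 and 6956 to 8790, and Schwann cell markers to 1159 to 1659 and 1141 to 1636, and these ranges overlapped. Single markers did pass: 4 higher and 4 lower of 8 astrocyte genes, 3 and 4 of 8 neuron genes, 4 and 1 of 7 microglia genes and 2 and 1 of 6 endothelial and mural genes, but none of 5 Schwann cell genes (limma). Red blood cell genes, with 3 of 5 higher (median log2 fold change 0.74), summed to 8751 to 14347 in HT-Flx and 6304 to 8904 in WT-Flx, and 3 of the 8 Hox genes tested were higher (median 1.60). The part of these in the results was not tested.

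Whether fluoxetine acted differently in HT and WT mice was tested as an interaction in the 20 P120 libraries. As deposited, 9 of 34 genes had a more positive response in HT and 3 a more negative one (limma, adjusted p under 0.05), against 15.8% and 11.5% of 17796 genes tested. The 9 were Olig1, Gpr17, Myrf, Mag, Cnp, Fa2h, Gjb1, Trf and Ndrg1, and the 3 were Opalin, Ermn and Ugt8a. For Mag the interaction was 0.91 ± 0.28 (adjusted p = 0.0347), from a difference of 0.54 in HT and of -0.37 in WT. For Ermn it was -1.21 ± 0.38 (adjusted p = 0.0351), from -0.73 in HT and 0.48 in WT. For Gpr17 it was 0.65 ± 0.19 (adjusted p = 0.0347), from 0.36 and -0.29.

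These calls were not stable. After the correction for GC content and length, without both vehicle libraries numbered 2, and without the libraries of low Hox level, 0 of the 34 genes passed in each case, nor did any of all genes tested (0%, limma). At an unadjusted p under 0.05 there were 8, 22 and 19 of the 34, against 21.2%, 41.1% and 40.5% of all genes. The median interaction over the 34 genes was 0.40 as deposited, 0.15 after the correction, 0.47 without both libraries numbered 2 and 0.43 without those of low Hox level, so it was smaller with the correction only of these 3 settings. None passed either when any 1 of 8 libraries was left out: HT-Veh replicates 4 and 5, WT-Veh replicates 2, 3 and 4, WT-Flx replicates 2 and 3 or HT-Flx replicate 1. All adjusted p as deposited lay at 0.0347 or above. Of the 58 other oligodendrocyte genes 13 were higher and 10 lower in the interaction as deposited and 0 after the correction. The largest as deposited were C1ql1 (0.92 ± 0.28), Kif19a (0.86 ± 0.24), Anln (-1.39 ± 0.38) and Igf1 (-1.26 ± 0.38). Each of the 4 comparisons between P120 groups shares libraries with some of the others, and the interaction uses all of these groups. These results are therefore not independent of one another.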

How the data were processed

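RNA-Seq was made from whole brains, 1 library per mouse, with poly-A selection and paired-end reads, in 6 groups of 5. Per the labels, the authors quantified reads with Salmon 1.1.0 on GRCm38 with a correction for GC bias and normalized the counts with DESeq2 1.30.1 in R 4.1.1. The deposited table holds this normalized signal, which is no longer in whole reads (at most 5.7% of low values lay within 0.02 of whole steps), so the depth of each library is unknown and no counting interval is given. Normalized counts summed to 31578614 to 32445810 per library at P10 and to 32484635 to 41801037 at P120.

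From these values, log2(value + 1) was fitted with limma 3.58.1 (R 4.3.3, intensity trend) on genes with a mean of at least 10 in the libraries compared, and p-values were adjusted by Benjamini-Hochberg over all genes tested, with a threshold of 0.05. Fold changes are on that log2 scale and understate changes of low genes. Errors beside fold changes are standard errors. Exact permutation tests were two-sided. As an alternative, the mean deviation of each library in 100 bins of GC content and transcript length (longest coding transcript, GENCODE M21, 19722 of 19737 genes) was subtracted. Other alternatives were pseudocounts of 5 and 0.1, a minimum mean of 100 or none, other size factors, no trend, a replicate block and leaving out libraries. The genes and lists were chosen with earlier results of these data known. All 34 genes are accounted for in each comparison, 12 are given in every library, and any other gene past the threshold in a genotype or fluoxetine comparison is given in the libraries of that comparison. Of the other oligodendrocyte genes, the 2 largest called changes in each direction are named, and 1 item is not reported here.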

Additional observations from a re-analysis of the deposited data

Results flagged for a closer look

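In 8 of 204 groups of 5 libraries, 1 library lay far from the other 4 in 1 of the 34 genes, by the ratio of its gap to the range of the group. Chance gives about 1 in 20 groups. P10 HT replicate 1 was the low library in 5 of the 8, with normalized counts of 5205 for Olig1, 1078 for Olig2, 580 for Fa2h, 424 for Gal3st1 and 1176 for Qdpr. The other 3 were Nkx6-2 in WT-Flx replicate 4, the highest of its group at 720, Cnp in WT-Flx replicate 2, the lowest at 11568, and Hapln2 in HT-Flx replicate 3, the lowest at 1640.

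The response to fluoxetine differed between HT and WT as deposited in 12 of the 34 genes (limma interaction, adjusted p under 0.05). Of these, 9 were more positive and 3 more negative in HT, against 15.8% and 11.5% of all 17796 genes tested. The difference of the log2 fold changes (HT minus WT) was 0.62 for Olig1, 0.65 for Gpr17, 0.74 for Myrf, 0.91 for Mag, 0.83 for Cnp, 0.46 for Fa2h, 0.86 for Gjb1, 0.75 for Trf and 0.62 for Ndrg1, and -0.51 for Opalin, -1.21 for Ermn and -0.87 for Ugt8a. None of the 12 passed after the correction for GC content and transcript length. Nor did any pass without both vehicle libraries numbered 2, or without any 1 of the 8 libraries named above for the interaction.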

How the results depend on the processing

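Counts of genes past the threshold moved by more than 1.5 times, or away from 0, in these cases. In HT-Flx against WT-Flx the 7 lower genes became 4 with the GC and length correction, with or without the replicate block, and the 21 higher genes became 10 with both. With both, 2941 of all 17788 genes were higher and 2292 lower. In the interaction of genotype and fluoxetine the 9 higher and 3 lower genes became 0 and 0 with the correction (with or without the replicate block), without both vehicle libraries numbered 2, and without the libraries of low Hox level, a setting chosen after seeing the data. In HT mice between the ages the 5 lower genes became 9 with the correction, with or without the block. Of all 17976 genes, 4777 were lower with the correction alone and 4551 with the block too. Signs turned with the correction, with the same values under the block. In HT-Flx against WT-Flx the new values were -0.031 for Olig1, -0.087 for Sox10, 0.30 for Tspan2, -0.25 for Hapln2, 0.00046 for Ugt8a and 0.092 for Gjc3. Ugt8a became 0.033 in the interaction, and Tspan2 0.043 in WT between the ages. The cause was not tested. With 1 library left out, the interaction ranged from 0 to 16 higher and 0 to 5 lower genes, with both highest values without HT-Veh replicate 3, and WT-Flx against WT-Veh from 0 to 1 higher and 0 to 1 lower. Over the same fits, 0 to 7667 of all genes passed in the interaction and 0 to 1400 in WT-Flx against WT-Veh. Without HT-Veh replicate 3, 3819 of all 17794 genes were higher and 2789 lower in the interaction. In no comparison did every same-numbered pair correlate above 0.1 (the lowest pair ranged from -0.303 between the vehicle groups to 0.017 in WT between the ages), so the numbers were not taken as pairs. The mean over same-numbered pairs was highest in HT-Flx against HT-Veh, at 0.179, against -0.044 over the other pairs. The replicate block alone gave 21 higher and 10 lower genes in WT between the ages, 22 and 5 in HT, 21 and 7 in HT-Flx against WT-Flx and 10 and 3 in the interaction. Unknown depth leaves the precision of low genes to the spread between mice.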
